A study of Mus musculus with 30 samples.

Results

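The soleus of mice without AMP-activated protein kinase (AMPK) in skeletal muscle was compared with that of control mice after hindlimb unloading. The comparison rests on the 15 libraries labelled as unloaded, 8 from knockout mice (mKO) and 7 from controls, of 30 RNA-seq libraries in all. The other 15 came from ambulatory mice of the same genotypes (8 controls and 7 mKO) and shared the estimate of spread in the model. All mice were C57BL/6J, 3 to 4 months old. Unloading, in which the hind limbs are kept off the cage floor, lasted 4 weeks. Controls were floxed at both genes for the catalytic subunits of AMPK, α1 and α2, and carried no Cre recombinase, while mKO mice are described as double knockouts in muscle. The sources used here do not name the promoter that drove Cre, the form of Cre or the time of deletion, and without a control that carries Cre the loss of AMPK and the presence of Cre cannot be told apart. The unloaded controls were 4 males and 3 females, and the unloaded mKO mice 3 males and 5 females. No label states in words that every library is a separate animal, so the p-values measure the spread between these libraries, called mice below.

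AMPK is a kinase made of a catalytic α, a scaffolding β and a nucleotide-sensing γ subunit. It is switched on when AMP and ADP rise relative to ATP, and it phosphorylates proteins of fat, sugar and protein metabolism and of autophagy. The soleus is a postural calf muscle with many slow, mitochondria-rich fibres. When it no longer bears weight it loses mass and its fibres move toward faster myosin types.

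Total counts ran from 13912163 to 18114930 in unloaded controls and from 12083415 to 17510056 in unloaded mKO mice. Levels are given as CPM, read counts relative to library size scaled by the trimmed mean of M-values (normalised CPM). Every unloaded library held abundant transcripts of muscle fibres. The skeletal actin gene Acta1 ran from 5571 to 22996 CPM and the slow myosin heavy chain gene Myh7 from 4310 to 17888 CPM. Among the ambulatory libraries, which shared the estimate of spread, the lowest mKO library held 10379 CPM of summed muscle fibre markers. The median of that group was 250695 CPM. Sample titles end in a letter, a, b or c, that is not explained. Each genotype held all 3 letters among unloaded mice (2, 2 and 3 controls and 2, 3 and 3 mKO mice), and within unloaded mice letter a was all male and letter b all female. Libraries of different genotype were as alike as libraries of the same genotype: the median correlation of log2 CPM between libraries was 0.96 within controls, within mKO mice and between the genotypes. In a principal component analysis of the 15 libraries, the genotypes overlapped on the first 2 components, which held 31.7% and 20.6% of the variance. Replicates 2 and 3 of the unloaded mKO group stood apart in adipocyte and Schwann cell transcripts, as described below.

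After unloading, counts of 3 genes differed between the genotypes: those of Prkaa2, the gene of the α2 subunit, fell in mKO soleus, and those of Esr1 and Abat rose. Esr1 encodes oestrogen receptor α, and Abat the mitochondrial enzyme that breaks down the neurotransmitter GABA. These were the genes called by edgeR among 16932 tested, at a Benjamini-Hochberg adjusted p below 0.05, or 0.0177% of the genes. The Abat call ended in many of the alternatives given below. Counts per gene cannot tell Esr1 transcripts from those of a transgene that holds part of its sequence. An unadjusted p below 0.05 was found for 301 genes (1.78%), of which 133 had higher and 168 lower values in mKO mice. If no gene differed and p-values were evenly spread, a share of 0.05 would lie there, so fewer were found than that. The reason was not tested. Over all genes tested 8961 had higher and 7971 lower values in mKO mice. The median log2 difference was 0.01, and 90% of the genes lay between -0.42 and 0.39.

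**Figure D1:**
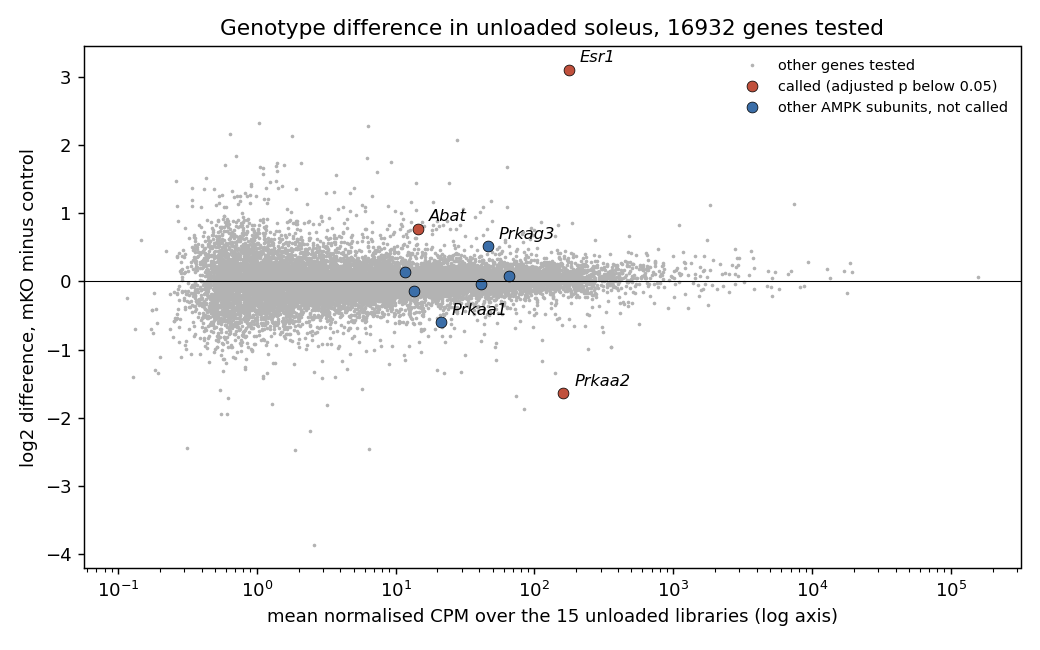
Each point is 1 of the 16932 genes tested, placed by its mean normalised CPM over the 15 unloaded libraries (log axis) and by its log2 difference between mKO and control mice. The called genes Esr1 (3.10), Prkaa2 (-1.64) and Abat (0.77) are red, the AMPK subunit genes that were not called are blue, and most other genes lie close to 0.

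How large a difference these mice could have hidden depended on the gene's level. The 95% confidence interval of the difference lay within a 2-fold change in either direction for 13786 genes, or 81.4% of those tested, and within a 1.5-fold change for 50.3%. Among genes of 10 to 100 CPM, 95.3% had an interval within 2-fold. The share was 36.0% for genes below 1 CPM and 91.4% for genes over 100 CPM. Within 1.5-fold it was 57.7% over 100 CPM, against 79.4% from 10 to 100 CPM, so precision did not rise steadily with level. By point estimate 151 genes differed at least 2-fold, 91 of them with a mean of at least 1 CPM, and apart from the called genes these estimates did not exceed the spread between mice by the adjusted test. The number of genes at an unadjusted p below 0.05 moved by more than 1.5 times with single libraries, to 178 without control replicate 2, 478 without control replicate 7, 519 without mKO replicate 1 and 469 without ambulatory mKO replicate 2. It was 675 without the 3 libraries richest in adipocyte transcripts (unloaded mKO replicates 2 and 3 and ambulatory mKO replicate 2), 644 with limma and 1337 of 35982 genes without a low-count filter.

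The targeted genes were examined first. Prkaa2 (ENSMUSG00000028518), the gene of the α2 subunit, measured 129.9 CPM in the lowest control, 253 CPM in the median and 346 CPM in the highest. In mKO mice it measured 56.0 CPM in the lowest, 80.3 CPM in the median and 112 CPM in the highest. Every mKO mouse lay below every control, and the groups did not overlap. Prkaa2 was 3.11-fold lower in the model (log2 -1.64 ± 0.24 SE, 95% interval -2.13 to -1.14, edgeR adjusted p = 0.00192). The plain difference of mean log2 CPM, without a term for sex, had a similar size within each title letter, at -1.56 in a, -1.84 in b and -1.58 in c. Raw counts were 2586 to 5254 per control library and 1001 to 1446 per mKO library, so counting error was small beside the spread between mice. The transcript was reduced and not absent. The files count reads over whole genes, so the value includes exons that were not deleted and cells that are not fibres. The 10 nearest tested neighbours lay between -0.80 and 0.87 for Prkaa2 and between -0.97 and 0.18 for Prkaa1, with none called.

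Prkaa1 (ENSMUSG00000050697) encodes the α1 subunit, which is also made by many cell types other than muscle fibres. It measured 22.4 CPM in the lowest control, 23.9 CPM in the median and 30.4 CPM in the highest, against 13.4, 16.2 and 24.3 CPM in mKO mice. The groups overlapped through mKO replicates 2 and 3, at 24.3 and 22.5 CPM, while the other 6 mKO mice lay below all controls. Prkaa1 was not called, with a log2 value of -0.60 ± 0.18 SE (95% interval -0.97 to -0.23, unadjusted p = 0.00239). It did not pass in any alternative that was run. The adjusted p came closest in limma (0.051) and without the 3 adipocyte-rich libraries (0.0711).

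**Figure D2:**
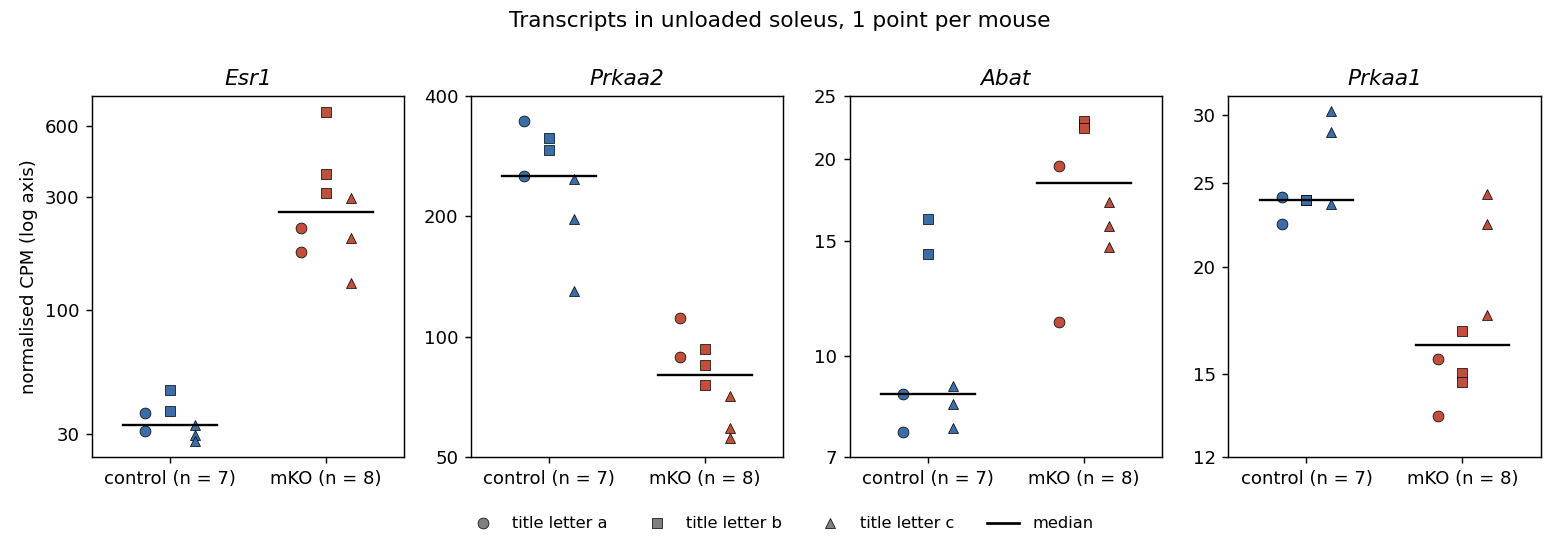
Normalised CPM (log axis) of Esr1, Prkaa2, Abat and Prkaa1 in each of the 7 unloaded controls and 8 unloaded mKO mice, with symbols for the letter that ends the sample title and a line at the group median. Esr1 and Prkaa2 do not overlap between genotypes, while Abat and Prkaa1 do when the letters are pooled.

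The 2 catalytic subunit genes varied in opposite directions among mKO mice. Mice with the least Prkaa1 had the most Prkaa2: replicate 5 held 13.4 CPM of Prkaa1 and 112 CPM of Prkaa2, and replicate 2 held 24.3 CPM of Prkaa1 and 59.1 CPM of Prkaa2. Over the 8 unloaded mKO mice Pearson's r of log2 CPM was -0.92 (exact two-sided permutation p = 0.00102, adjusted over 4 relations 0.00407) and Spearman's rho was -0.905 (exact permutation p = 0.00456, adjusted 0.0183). Without the 2 mice farthest from the median of Prkaa1, which were the adipocyte-rich replicates 2 and 3, r was -0.81 over 6 mice (exact permutation p = 0.0472) and rho was -0.829 (exact permutation p = 0.0583). Letter means were ordered oppositely for the 2 genes. The means of the 3 mKO mice of letter c were 21.4 CPM of Prkaa1 and 62.0 CPM of Prkaa2, those of letter b 15.5 and 84.6 CPM, and those of letter a 14.5 and 100.4 CPM. With each mouse centred on the mean of its letter, a step added after these values were seen, r was -0.72 and no longer significant (exact permutation p = 0.111 over the 72 orders within letters), with a negative relation in each of the 3 letters. In the other groups, examined after these values were seen, r was -0.58 in 7 unloaded controls (rho -0.571, exact permutation p = 0.150 and 0.2), -0.55 in 7 ambulatory mKO mice (rho -0.286, exact permutation p = 0.220 and 0.556) and 0.15 in 8 ambulatory controls (rho 0.286, exact permutation p = 0.724 and 0.501). Adjusted over the 4 groups, p was 0.293 or higher for r and 0.4 or higher for rho in these 3.

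**Figure D3:**
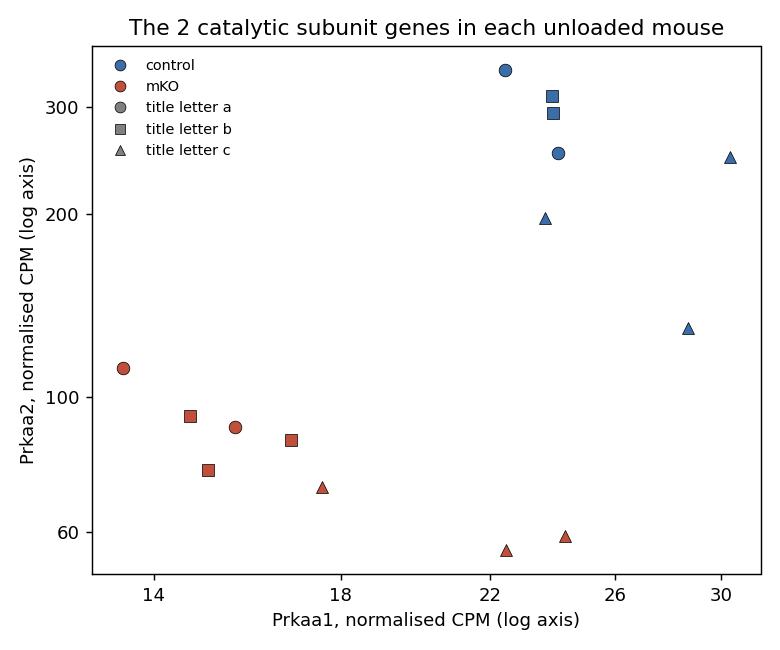
Normalised CPM of Prkaa1 (horizontal, log axis) and Prkaa2 (vertical, log axis) in each unloaded mouse, controls blue and mKO red, with symbols for the title letter. Among the 8 mKO mice the points run from 13.4 CPM of Prkaa1 with 112 CPM of Prkaa2 down to 24.3 CPM with 59.1 CPM.

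None of the 5 genes of the other AMPK subunits was called. The muscle-enriched γ3 subunit gene Prkag3 had the highest log2 value among them, 0.52 ± 0.28 SE (95% interval -0.07 to 1.10). It measured 19.0, 36.7 and 52.8 CPM in the lowest, median and highest control and 31.1, 53.2 and 79.0 CPM in mKO mice, so the groups overlapped broadly. The β1 gene Prkab1 had a value of 0.14 ± 0.10, the β2 gene Prkab2 one of 0.07 ± 0.22, the γ1 gene Prkag1 one of -0.03 ± 0.13 and the γ2 gene Prkag2 one of -0.14 ± 0.25. The intervals of Prkab1, Prkab2, Prkag1 and Prkag2 lay within a 2-fold change in either direction, from -0.66 at the lowest bound to 0.53 at the highest. The sign of Prkab2 and Prkag1 turned when single libraries were left out.

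Kinases upstream of AMPK and its relatives gave no call among 19 tested, with 10 higher and 9 lower and a median of 0.01. Stk11, which encodes the upstream kinase LKB1, measured 0.08 ± 0.20. Camkk1, a calcium-dependent activating kinase, had the lowest value, -0.70 ± 0.37, at a mean of 2.00 CPM in controls. The AMPK-related kinase Nuak1 measured 0.49 ± 0.31. For 24 genes whose proteins AMPK phosphorylates the median was 0.11, and 0.03 without control replicate 2. By letter the median was -0.01 in a, 0.12 in b and 0.06 in c. Of the 24 genes, 19 had higher and 5 lower values in mKO mice, and none was called. These included Acacb, the acetyl-CoA carboxylase of muscle mitochondria, at 0.07 ± 0.28, the deacetylase Hdac4 at 0.30 ± 0.20, the CREB coactivator Crtc2 at 0.16 ± 0.10 and Rptor, the mTORC1 subunit raptor, at 0.14 ± 0.12. The highest value, 0.76 ± 0.58 for the hormone-sensitive lipase Lipe, differed by letter: it was 0.01 in a, -0.07 in b and 1.79 in c, the letter of the adipocyte-rich libraries.

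Esr1 (ENSMUSG00000019768) showed the highest log2 difference of all genes tested. It measured 28.1 CPM in the lowest control, 32.9 CPM in the median and 46.0 CPM in the highest. In mKO mice it measured 130.2 CPM in the lowest, 260.5 CPM in the median and 685 CPM in the highest. All mKO mice lay above all controls with a wide gap, and mKO replicate 6 stood well above the rest, the next being 375 CPM. The model gave an 8.58-fold rise (log2 3.10 ± 0.33 SE, 95% interval 2.42 to 3.78, edgeR adjusted p = 5.16e-06). Raw counts were 433 to 696 per control library and 2284 to 9843 per mKO library. The spread among mKO mice was larger than among controls, with an SD of 174.7 CPM around a mean of 300.3 (n = 8) against 6.12 around 34.6 (n = 7). The difference was 2.54 in letter a, 3.37 in b and 2.71 in c, and 3.14 ± 0.48 in females against 2.88 ± 0.45 in males.

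Forms of Cre that are switched on by tamoxifen carry a ligand-binding domain of the oestrogen receptor. The sources used here do not say whether these mice carried such a form, and counts per gene cannot tell transcripts of the Esr1 gene from those of a transgene that holds part of its sequence. The 10 nearest tested neighbours of Esr1 in the RefSeq order lay between -0.22 and 0.11, with none called and none at an unadjusted p below 0.05. Of 18 tested oestrogen receptor genes, cofactors and classic target genes, Esr1 was the 1 called, with 9 higher and 9 lower and a median of 0.04. The progesterone receptor gene Pgr, a classic target in reproductive tissues, measured -0.71 ± 0.94 at under 1 CPM in both group means. The target Greb1 measured 0.21 ± 0.44, the lysosomal protease Ctsd 0.00 ± 0.12, the cell cycle gene Ccnd1 -0.09 ± 0.29 and the stress transcription factor Xbp1 -0.12 ± 0.11. Levels of Esr1 showed no significant relation with Prkaa2 across the 8 unloaded mKO mice (r = 0.32, exact permutation p = 0.443, adjusted 0.559; rho = 0.310, exact permutation p = 0.462, adjusted 0.582). The relation of Esr1 with Abat was not significant either (r = 0.50, exact permutation p = 0.209, adjusted 0.418; rho = 0.548, exact permutation p = 0.171, adjusted 0.342). For Prkaa2 with Abat r was 0.25 (exact permutation p = 0.559, adjusted 0.559) and rho 0.238 (exact permutation p = 0.582, adjusted 0.582). Without the 2 farthest mice r was -0.115, 0.484 and 0.228 in these 3 relations.

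Abat (ENSMUSG00000057880) measured 7.65 CPM in the lowest control, 8.75 CPM in the median and 16.2 CPM in the highest. In mKO mice it measured 11.3, 18.4 and 22.9 CPM. The groups overlapped when the letters were pooled. Both genotypes were highest in letter b, which was all female among unloaded mice, so letter and sex cannot be told apart here. In letter a the controls measured 7.65 and 8.75 CPM and the mKO mice 11.3 and 19.5 CPM. In letter b the 2 controls measured 14.3 and 16.2 CPM and the 3 mKO mice 22.4 to 22.9 CPM. In letter c the 3 controls measured 7.76 to 9.00 CPM and the 3 mKO mice 14.7 to 17.2 CPM. Within each letter every mKO mouse thus lay above every control, a pattern noticed in the values and given as a description. The model gave a 1.71-fold rise (log2 0.77 ± 0.14 SE, 95% interval 0.49 to 1.05, edgeR adjusted p = 0.0268). Raw counts were modest, 113 to 234 per control library and 165 to 325 per mKO library.

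The Abat call was the least stable of the 3. The adjusted p was 0.08 when no genes were filtered out, 0.128 in a model without sex and 0.621 in a fit of the unloaded groups alone, which each ended the call. The call also ended in 10 of the 15 fits that left out 1 unloaded library, where the adjusted p ran from 0.00385 to 0.151 over all 15 and the log2 value from 0.69 to 0.88. The calls of Esr1 and Prkaa2 held in every alternative that was run. With 1 unloaded library left out at a time, Esr1 lay between 2.83 and 3.204 and Prkaa2 between -1.75 and -1.54.

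Genes that act beside Abat showed no call. Of 16 tested genes of GABA breakdown, transport and reception, 7 had higher and 9 lower values, with a median of -0.12 and Abat the 1 called. Aldh5a1, the next enzyme of GABA breakdown, measured -0.18 ± 0.18, and the genes for the GABA-making enzymes Gad1 and Gad2 had too few counts to be tested. The taurine transporter Slc6a6 measured 0.16 ± 0.18. Abat also takes part in the breakdown of β-alanine and shares steps with that of branched-chain amino acids. Of 22 tested genes of that list 16 had higher and 6 lower values, none was called, and the median was 0.08. Dbt measured 0.26 ± 0.15, Bckdhb 0.19 ± 0.14 and Mccc2 0.17 ± 0.13. The 10 neighbours of Abat lay between -0.10 and 0.42, with none called.

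Besides the 3 called genes, which are among them, few genes had a small unadjusted p: 5 in all were below 0.001. The values that follow are of genes with the smallest unadjusted p in each direction and at least 1 CPM on average. None of them was called, and their adjusted p was 0.9999 in each case. Slc7a11, the cystine importer that feeds glutathione synthesis, measured 0.995, 2.20 and 4.01 CPM in the lowest, median and highest control and 0.295, 0.426 and 1.54 CPM in mKO mice. All mKO mice but replicate 5 lay below all controls. Its log2 value was -1.80 ± 0.47 SE (unadjusted p = 0.000559) and had the same sign in every letter, -1.80 in a, -1.73 in b and -1.58 in c. In ambulatory mice it was -0.25 ± 0.58.

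Clu, which encodes the secreted chaperone clusterin, ranged from 14.2 to 143 CPM among controls and from 10.9 to 25.2 CPM among mKO mice. Its value was -1.34 ± 0.38 SE, and -0.52 without control replicate 2, the highest at 143 CPM. Tnfrsf11b, the decoy receptor osteoprotegerin, measured -1.35 ± 0.38, and Sfrp2, a secreted modulator of Wnt signals, -2.48 ± 0.82 at 3.37 CPM on average in controls. The actin-severing protein gene Scin measured -0.69 ± 0.21 and the cadherin gene Cdh23 -0.48 ± 0.14. Among genes with higher values, Selenos, a selenoprotein of the endoplasmic reticulum, measured 13.9 to 30.1 CPM in controls and 17.1 to 66.4 CPM in mKO mice (0.82 ± 0.26). Col7a1, the gene of anchoring-fibril collagen, measured 8.79 to 19.0 CPM in controls and 17.9 to 34.7 CPM in mKO mice (0.82 ± 0.26), and its groups overlapped by 1 control. The secretin receptor gene Sctr measured 0.76 ± 0.23. The groups did not overlap for 5 genes, or 0.0295% of those tested: Esr1, Prkaa2, Tmem218 at -0.50 ± 0.17 and the unnamed loci Gm34006 and Gm15667, which were singled out after their values were seen and lay near or below 1 CPM. The lowest log2 value of all genes tested, also singled out after it was seen, was that of the kallikrein gene Klk1 at -3.86 ± 1.41. It measured 0 to 35.9 CPM in controls and 0.0590 to 1.21 CPM in mKO mice, so the groups overlapped.

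Genes of pathways linked to AMPK or to disuse gave no call other than the 3 above. Over 31 pathway lists with 660 different genes tested, 13 genes, or 1.97%, had an unadjusted p below 0.05, close to the 1.78% over all genes. The median of every pathway list lay within 0.2 of 0. Of these pathway genes, 82.1% had a 95% interval within a 2-fold change. That share was lower elsewhere, at 31.6% of 38 genes in the fibre-type lists and 49.1% of 108 genes in the cell marker lists. The lack of calls in those lists, described below, therefore excludes less. The lists are described by their counts and medians, and no list was tested as a set. The median of 23 of the 44 lists changed sign in at least 1 of 25 alternatives, and 7 of the 44 had the same sign in all 3 letters. Among the lists that changed sign were those of upstream kinases, glycolysis, glucose uptake, fatty acid oxidation, IGF signalling, mTORC1, heat shock, NRF2 and NAD synthesis.

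**Figure D4:**
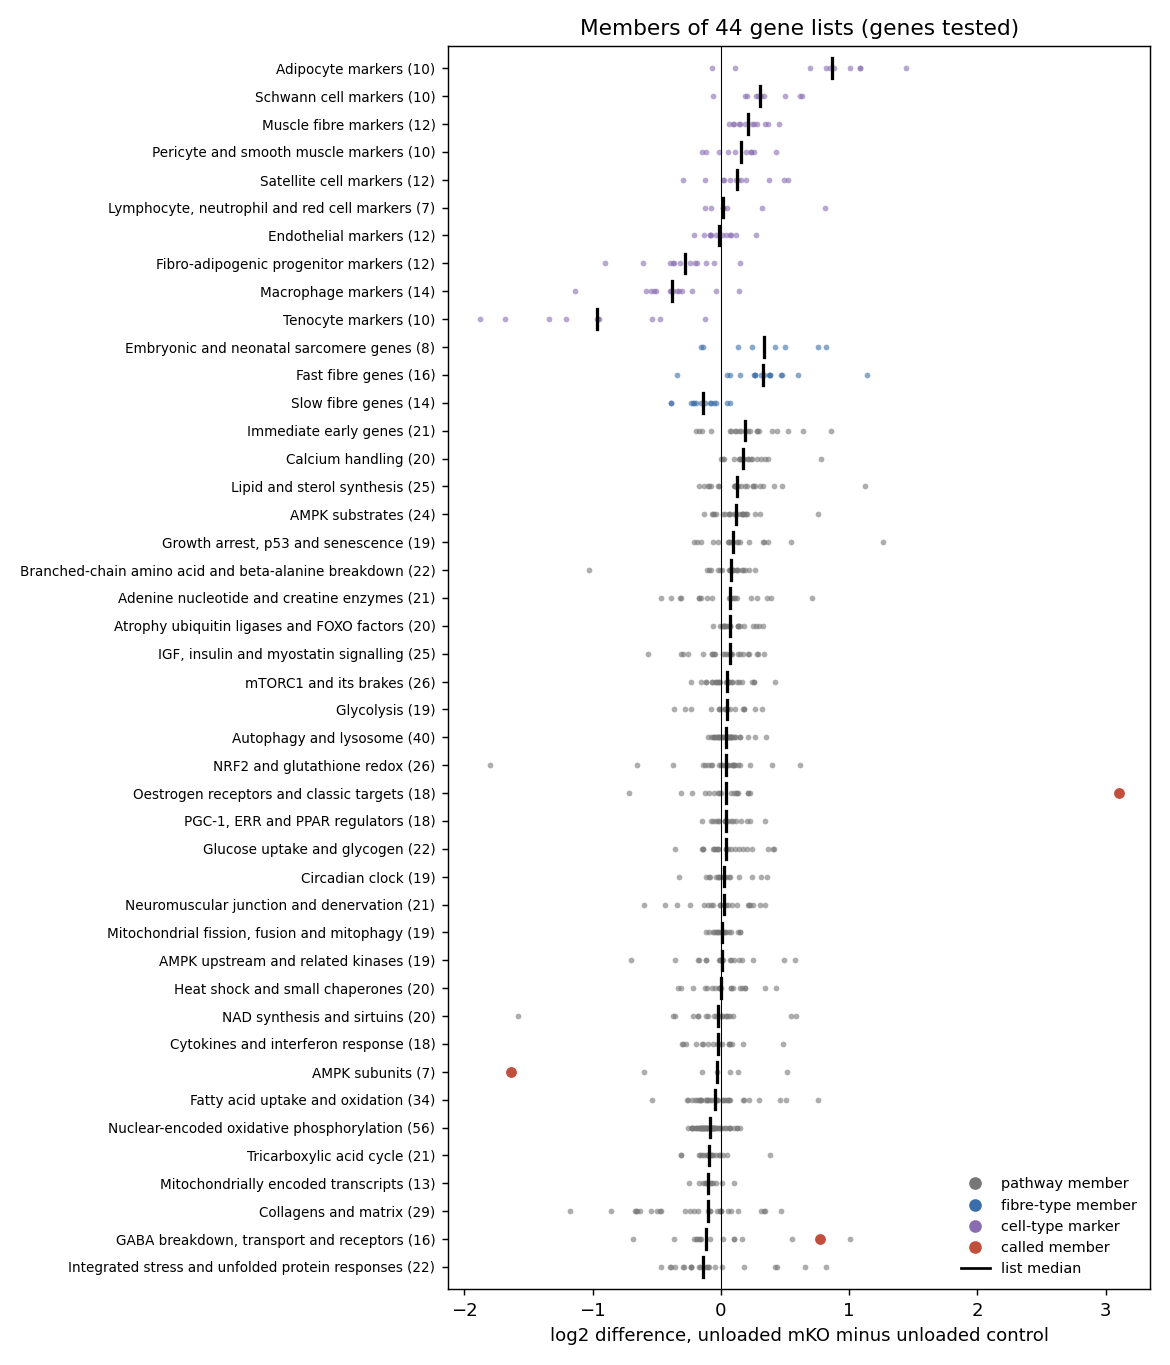
Each row is 1 of 44 gene lists with the number of genes tested, each point a member placed by its log2 difference between unloaded mKO and control mice, and each black bar the list median. The called members Prkaa2, Esr1 and Abat are red, and the medians of the pathway lists lie within 0.2 of 0.

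Myosin heavy chain genes mark fibre types, and none of the 4 adult ones was called. The slow gene Myh7 ranged from 4310 to 12997 CPM in controls against from 4484 to 17888 CPM in mKO mice (log2 -0.08 ± 0.49 SE). The type 2A gene Myh2 ranged from 515 to 6195 CPM and from 398 to 4152 CPM (-0.34 ± 0.57), and the type 2X gene Myh1 from 5523 to 27962 CPM and from 4151 to 40525 CPM (0.27 ± 0.53). The type 2B gene Myh4 ranged from 1257 to 8125 CPM in controls and from 2676 to 18886 CPM in the knockouts (1.14 ± 1.03, 95% interval -0.97 to 3.25). For these genes mice of 1 genotype differed several-fold, so intervals were wide and the sign of Myh7, Myh2 and Myh1 turned in some alternatives.

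Of 16 fast fibre genes 15 had higher values in mKO mice, with a median of 0.33 and none called. Actn3, the fast α-actinin, measured 0.60 ± 0.53, the calcium buffer Pvalb 0.48 ± 0.40 and the fast light chain Mylpf 0.38 ± 0.31. The list median was -0.23 in letter a, 0.55 in b and -0.02 in c, so it was above 0 in letter b and below 0 in a and c. Of 14 slow fibre genes 12 had lower values, with a median of -0.14, -0.17 in letter a, -0.15 in b and -0.23 in c. With limma 8 of the 14 were lower and the median was -0.04. The slow light chains Myl3 and Myl2 both measured -0.39 (SE 0.42 and 0.49), and Atp2a2, the slow calcium pump, -0.21 ± 0.41. Of 8 tested embryonic and neonatal sarcomere genes 6 had higher values, with a median of 0.33, -0.27 in letter a, 0.12 in b and 0.27 in c. Actc1 measured 0.75 ± 0.38 and Myh3 0.82 ± 0.49. All 20 genes of the calcium-handling list had values above 0, with none called and a median of 0.17. That list leaves out the calcium pump genes Atp2a1 and Atp2a2, and also Casq1, Casq2 and Pln, which are in the fibre-type lists. The median was -0.16 in letter a, 0.34 in b and 0.03 in c, and without control replicate 2 the values of 16 genes were above 0. Sln, the sarcolipin that restrains the calcium pump, measured 30.1, 68.6 and 103 CPM in the lowest, median and highest control and 82.3, 107 and 205 CPM in mKO mice (0.78 ± 0.44). Muscle fibre markers had values in the same direction as the fast and calcium-handling genes: 12 of 12 were above 0. Their median was 0.21, -0.22 in letter a, 0.44 in b and -0.06 in c. Casq1 is also in the fast list, and Ryr1 and Cacna1s are also in the calcium-handling list, so the lists share members. The part of the muscle fibre markers in these results was not tested.

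Genes of mitochondrial energy metabolism had slightly lower values, none called. Of 56 nuclear-encoded genes of oxidative phosphorylation 45 were lower, with a median of -0.09 and a range of -0.26 to 0.15. Ndufa9, a complex I subunit, measured -0.22 ± 0.18, and Cycs, cytochrome c, -0.23 ± 0.21. The summed level of the list ran from 10287 to 16359 CPM in controls against from 6808 to 14522 CPM in mKO mice, and the lowest library was the adipocyte-rich mKO replicate 3. Of 21 genes of the tricarboxylic acid cycle 18 were lower, with a median of -0.09, and of 13 mitochondrially encoded transcripts 11, with a median of -0.10. Without the 3 adipocyte-rich libraries the medians were -0.01 for oxidative phosphorylation, -0.01 for the cycle and 0.03 for mitochondrial transcripts. Letter b gave values above 0 for each of these lists (0.10, 0.09 and 0.01). Ppargc1a, the coactivator PGC-1α that drives mitochondrial genes, measured 0.03 ± 0.45.

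Fuel use showed no call in either direction. Of 34 genes of fatty acid uptake and oxidation 14 had higher and 20 lower values (median -0.04, and 22 higher with a median of 0.04 with limma), among them the carnitine transferase Cpt1b at -0.08 ± 0.34 and the fatty acid transporter Slc27a1 at 0.30 ± 0.23. Of 19 glycolytic genes 13 were higher (median 0.04, and -0.05 without control replicate 2), with Ldhb at -0.37 ± 0.30, and of 22 genes of glucose uptake and glycogen 12 were higher (median 0.04). Slc2a1, the basal glucose transporter, had an unadjusted p below 0.05 and a value of 0.41 ± 0.18, with opposite signs in letters: 0.61 in a, -0.38 in b and 1.07 in c. The insulin-responsive transporter Slc2a4 measured 0.05 ± 0.20. Of 25 genes of lipid and sterol synthesis 18 were higher with a median of 0.13, and the median was -0.14 without the adipocyte-rich libraries.

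No gene of muscle wasting was called. Of 20 atrophy ubiquitin ligases and FOXO factors 18 had values above 0, with a median of 0.07 and none called. The ligase gene Fbxo32 (atrogin-1) measured 311 to 902 CPM in controls against 316 to 1261 CPM in mKO mice (0.27 ± 0.36), and Trim63 (MuRF1) measured 120 to 271 CPM and 83.9 to 299 CPM (0.18 ± 0.35). Foxo1 measured 0.30 ± 0.29 and Klf15, a glucocorticoid-induced factor, 0.25 ± 0.17. Of 40 autophagy and lysosome genes 28 were higher (median 0.04), with Ulk1, the kinase that starts autophagy, at 0.06 ± 0.18. Of 26 genes of mTORC1 and its brakes 14 were higher (median 0.05), and of 25 genes of IGF, insulin and myostatin signalling 16 (median 0.07, and 11 with a median of -0.03 with limma). Among 21 genes of the neuromuscular junction and of denervation 11 were higher (median 0.02), with Myog, myogenin, at -0.06 ± 0.38.

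Stress and redox genes held some of the lower values, none called. Of 22 tested genes of the integrated stress and unfolded protein responses 16 were lower, with a median of -0.14, and the median was below 0 in each letter (-0.30 in a, -0.09 in b, -0.21 in c). Hspa5, the main chaperone of the endoplasmic reticulum, measured 119, 141 and 195 CPM in the lowest, median and highest control and 96.5, 115 and 133 CPM in mKO mice (-0.39 ± 0.17). Its partner Hsp90b1 measured -0.30 ± 0.13 and the factor Atf5 -0.39 ± 0.17. These 3 genes had an unadjusted p below 0.05, out of 22. Of 20 genes of NAD synthesis and sirtuins, 2 had such a p: Nmrk2, a muscle kinase that makes NAD from nicotinamide riboside, at -1.58 ± 0.65, and the NAD-consuming enzyme Cd38 at -0.37 ± 0.14. Nmrk2 had values of -2.48 in letter a, 0.31 in b and -1.61 in c. Of 26 genes of the NRF2 response and glutathione 16 had higher values (median 0.04), with Slc7a11, described above, the lowest. Of 20 heat shock genes 10 were higher, and Hspa8 measured -0.34 ± 0.19. Of 19 genes of growth arrest and senescence 14 were higher (median 0.09, -0.12 in letter a, -0.01 in b and 0.12 in c). Of 21 immediate early genes, which are switched on quickly by activity, 17 were higher (median 0.19), with Jun at 0.28 ± 0.19. By letter this median was 0.07 in a, 0.24 in b and -0.08 in c, and without mKO replicate 7 it was 0.09.

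Markers of other cell types varied widely between mice of 1 genotype, and no marker was called. In bulk tissue, fewer cells of a type and less RNA per cell cannot be told apart. All 10 tenocyte markers had lower values in mKO mice, with a median of -0.96. Chad, a tendon and cartilage matrix protein, measured 3.33, 86.5 and 487 CPM in the lowest, median and highest control and 2.7, 36.4 and 81.7 CPM in mKO mice (-1.88 ± 0.92), and the matrix protein gene Comp measured -1.68 ± 0.83. The summed tenocyte level ran from 140 to 3302 CPM in controls against from 153 to 1688 CPM in mKO mice, with control replicate 2 the highest. Without that control the list median was -0.60. Of 29 collagen and matrix genes 22 were lower (median -0.10, and 0.12 without control replicate 2). Of 14 tested macrophage markers 13 were lower with a median of -0.38, at sums of 168 to 368 CPM and 166 to 289 CPM. The letters differed for this list, at 0.00 in a, 0.04 in b and -0.80 in c. Of 12 markers of fibro-adipogenic progenitors, the fibroblast-like cells between fibres, 11 were lower with a median of -0.28, at 0.05 in a, 0.04 in b and -0.48 in c.

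Of 10 adipocyte markers 9 had higher values (median 0.87). Of the mKO mice, replicates 2 and 3 held 200.4 and 199.0 CPM of the adipocyte hormone gene Adipoq, against 3.00 to 41.3 CPM in the other mKO mice and 0.206 to 27.2 CPM in controls. The median was -0.21 without these libraries and ambulatory mKO replicate 2, and -0.30 with limma. The same replicates had the highest summed levels of Schwann cell markers among mKO mice, and 9 of 10 of these markers had higher values (median 0.30, and -1.26 without the 3 libraries). Of 12 satellite cell markers 10 were higher (median 0.13), with the stem cell factor Pax7 at 0.37 ± 0.41. Of 12 endothelial markers 6 were higher (median -0.02), and of 10 pericyte and smooth muscle markers 7 (median 0.15). Of 14 markers of lymphocytes, neutrophils and red cells 7 had too few counts to be tested, and the neutrophil gene Ly6g had no count in 14 of the 15 libraries. The part of these cell types in the differences of the lists above was not tested. Without the 3 adipocyte-rich libraries the called genes were again Esr1, Prkaa2 and Abat.

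**Figure D5:**
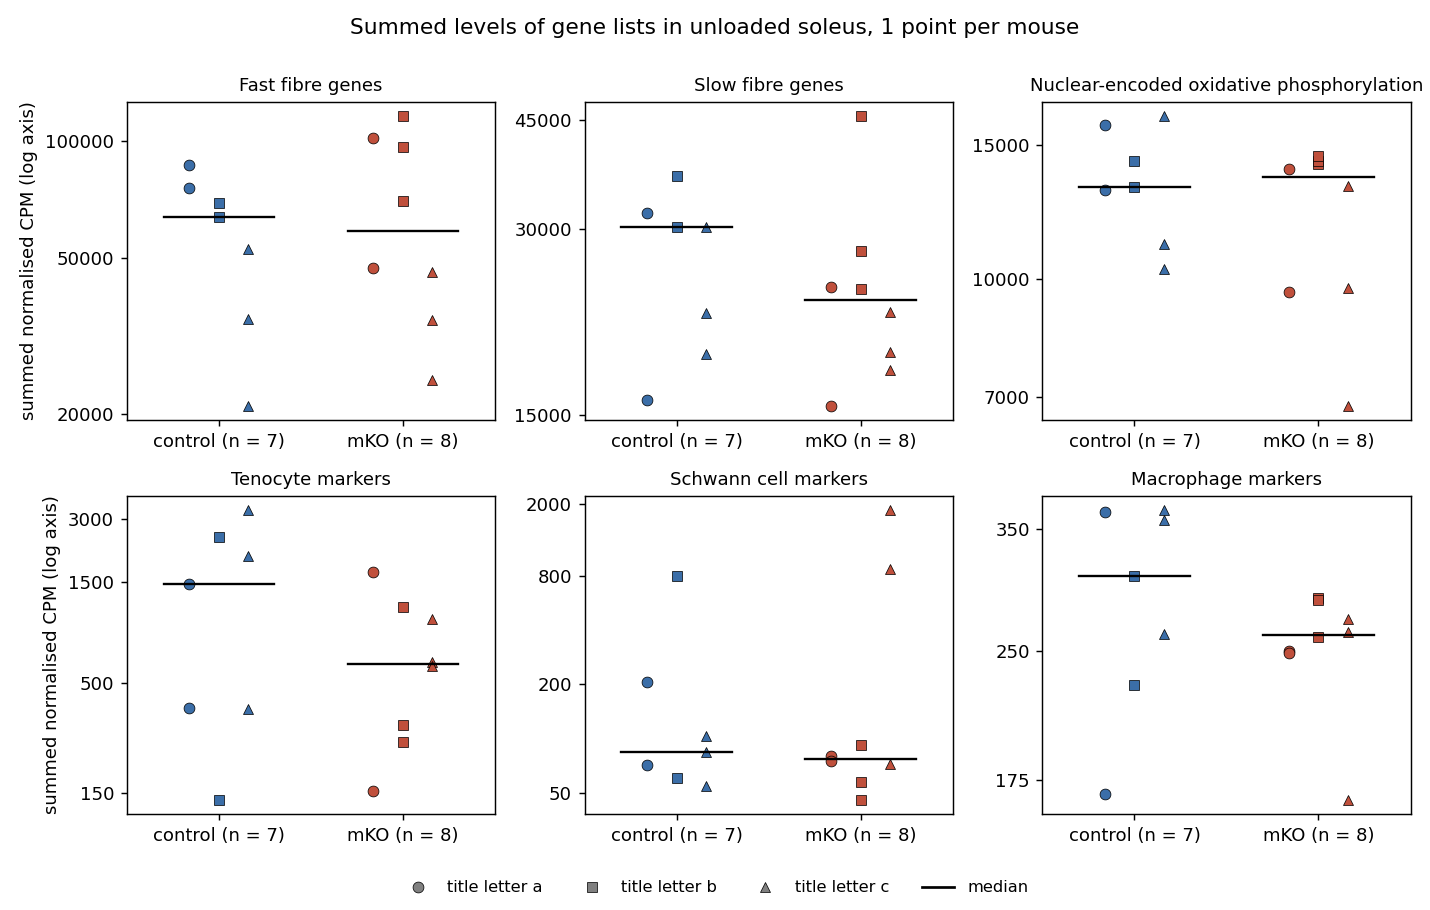
Summed normalised CPM (log axis) of 6 gene lists in each unloaded mouse, controls blue and mKO red, with symbols for the title letter and a line at the group median. The genotypes overlap in every panel, and the 2 highest mKO mice in Schwann cell markers are the adipocyte-rich replicates 2 and 3, at 872 and 1843 CPM.

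Whether the genotype difference itself differed with loading was tested by the interaction. No gene was called by edgeR, and 410 genes had an unadjusted p below 0.05, again a share of the genes below 0.05. For Esr1 the log2 difference in ambulatory mice was 3.81, and the unloaded difference was lower by 0.71 ± 0.45 SE (95% interval of the interaction -1.63 to 0.20). For Prkaa2 it was -1.89 in ambulatory mice (interaction 0.26 ± 0.35, interval -0.46 to 0.98) and for Abat 0.78 (interaction -0.01 ± 0.20, interval -0.42 to 0.40). The interval for Abat excludes a 1.5-fold difference between the loading states, while those for Esr1 and Prkaa2 do not. Ambulatory mKO replicate 2, which entered these estimates, was the lowest of its group at 76.6 CPM of Esr1 and 15.0 CPM of Prkaa2. The other ambulatory mKO mice held 260 to 563 CPM of Esr1 and 37.8 to 85.1 CPM of Prkaa2. The part of that library in the interaction values of these genes was not tested. Slc7a11, at -1.80 unloaded and -0.25 ambulatory, had an interaction of -1.55 that was not called.

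The genotype difference was also compared between the sexes. No gene was called by edgeR for the difference between unloaded females and males. An unadjusted p below 0.05 was found for 211, also a share of the genes below 0.05. In unloaded females, with 3 controls and 5 mKO mice, and in unloaded males, with 4 and 3, Esr1 was the 1 gene called. Prkaa2 measured -1.73 ± 0.35 in females and -1.52 ± 0.39 in males, and Abat 0.62 ± 0.20 and 0.90 ± 0.20. The differences between the sexes were 0.25 ± 0.60 for Esr1, -0.21 ± 0.51 for Prkaa2 and -0.28 ± 0.28 for Abat. Because letter a was all male and letter b all female, sex and title letter cannot be fully told apart in these values.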

How the data were processed

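The deposited values are raw read counts per Ensembl gene, not normalised, 1 column per library. Per the submitters' processing notes the authors used DESeq2 1.34.0, featureCounts 1.6.3, STAR 2.7.9a and cutadapt 1.16, with the builds GRCm39 and mm39. Neither the annotation release nor the strand setting is given in the sources used here. The labels' protocol texts describe people and myotubes, not mouse soleus, and were not used.

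TMM factors and the filterByExpr filter came from edgeR 4.0.16 (R 4.3.3), and counts were fitted over all 30 libraries by a robust quasi-likelihood model with 4 groups and sex. Differences are mKO minus control, with ± SE for log2 values and ± SD for CPM. Log2 CPM used a prior count of 2. All values by title letter, for genes and for lists, are plain differences of mean log2 CPM without a term for sex, unlike the model values beside them. Of 56980 genes 52073 had a symbol, and neighbours came from RefSeq. The procedure was tested on simulated counts.

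The members and the 44 lists were chosen with earlier results of these data known. Named were called genes, up to 12 uncalled genes in each direction with the smallest p (mean of at least 1 CPM), AMPK subunits, myosins, up to 4 members per list with the smallest p, and 5 neighbours on either side. Stk11, Acacb, Pgr, Greb1, Ctsd, Ccnd1, Gad1, Gad2, Slc6a6, Cpt1b, Slc2a4, Ppargc1a, Fbxo32, Trim63, Ulk1, Myog, Adipoq, Acta1, Pax7 and Ly6g were named for what they do, after their values were seen. Intervals cover 95%. Alternatives were median-of-ratios factors, DESeq2 1.42.0, limma 3.58.1 with library weights, other filters, sex left out, title letter added, unloaded groups alone, and libraries left out. Some genes are not reported here.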

Additional observations from a re-analysis of the deposited data

Results flagged for a closer look

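Dixon's gap ratio, taken here on CPM without a log scale, picks about 1 set in 20 when values are normally distributed. Some sets shared genes, so that share is not a direct yardstick here. In 13 of 60 sets of values examined, 1 mouse lay far outside the others of its group. Among single genes these were Esr1 in unloaded mKO replicate 6, at 685 CPM against 375 CPM in the next mouse, Prkab1 in control replicate 1 (7.97 CPM, the lowest), Prkag2 in mKO replicate 3 (22.9 CPM, the highest), Myh7 in mKO replicate 7 (17888 CPM, the highest) and Myh2 in control replicate 4 (6195 CPM) and mKO replicate 7 (4152 CPM), each the highest of its group. Among summed levels, mKO replicate 7 was highest in slow fibre genes at 45705 CPM, and control replicate 1 in embryonic and neonatal sarcomere genes at 691 CPM. The macrophage markers of mKO replicate 3 were the lowest of its group at 166 CPM. Endothelial markers were highest in mKO replicate 4 at 750.4 CPM, as were lymphocyte, neutrophil and red cell markers at 3202 CPM, of which the globin gene Hbb-bs gave 1510.3 CPM. Schwann cell markers were highest in control replicate 7 at 791 CPM and in mKO replicate 3 at 1843 CPM.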

How the results depend on the processing

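No paired analysis was possible because the replicate numbers were given in accession order and pair no mice. With 1 library left out at a time, the log2 value changed sign within -0.0876 to 0.164 for Prkab2, -0.10 to 0.0293 for Prkag1, -0.88 to 0.0341 for Myh2, -0.32 to 0.0535 for Myh7 and -0.000711 to 0.42 for Myh1. Myh2 measured 0.21 with limma, Myh7 0.011 without the 3 adipocyte-rich libraries, and the relation of Esr1 with Prkaa2 was -0.115 without the 2 farthest mice. The relation of Prkaa1 with Prkaa2 was -0.721 when centred on title letters and then not significant. No gene whose value changed sign was called, and the cause was not tested. The number of called genes was 2 or 3 in every alternative, and Esr1 and Prkaa2 were among them each time. It was 3 with DESeq2, limma, median-of-ratios factors and the title letter as covariate. No alternative that was run called a gene for the interaction with sex. Abat rests on 113 to 325 reads per library, and genes below 1 CPM are limited by depth.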
